A study of Mus musculus with 24 samples.

Results

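The 10 genes described here encode transcription factors of mesenchymal and mural cells: the forkhead genes Foxc1, Foxc2, Foxf2, Foxd1 and Foxs1, and Tbx18, Zic1, Twist1, Hic1 and Ebf1. They were listed by name, with earlier results of these data known, and are 10 of the 25471 genes in the authors' 3 deposited tables. All 10 have values in both pericyte tables and 8 in the endothelial table, where Foxs1 and Tbx18 were not analysed.

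The study sequenced mRNA of flow-sorted cells of the embryonic mouse brain, in 24 libraries. Mutants were Pdgfrb-Cre, Alk5(flox/flox), Zs/+ and controls Pdgfrb-Cre, Alk5(flox/+), Zs/+, so both carried the Cre, the ZsGreen reporter and at least 1 floxed copy of Alk5 (Tgfbr1), which encodes a type I receptor for TGF-beta. Pericytes (PCs) came from 4 mutant and 4 control samples at E11.5 and from 4 mutant and 4 control samples at E13.5, and endothelial cells (ECs) at E13.5 from 3 mutant and 5 control samples. GMH-IVH is the disease state that the labels give for mutants, and mesenchymal cells the cell type they give for the pericytes. Pdgfrb drives Cre in pericytes and also in other mural and mesenchymal cells, so the sorted cells need not be one cell type. The stated purpose was to find pericyte genes that depend on ALK5 while brain vessels develop.

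Forkhead proteins bind DNA through a winged-helix domain, and several of them specify mesenchyme. In the mouse Foxc1 is needed for the meninges and skull, Foxc2 for lymphatic vessels and the axial skeleton, Foxf2 for brain pericytes and the blood-brain barrier, and Foxd1 marks stromal progenitors of the kidney and of some mural cells. Tbx18 is a T-box factor of mural cells and epicardium, Zic1 a zinc finger factor of the dorsal neural tube, meninges and brain pericytes, and Twist1 a basic helix-loop-helix factor of cranial mesenchyme. Hic1 encodes a zinc finger repressor that marks quiescent mesenchymal progenitors in adult mice, and Ebf1 a factor of B lymphocytes, adipose progenitors and pericytes.

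The values are the authors' group means of normalized counts, with their ratio and p. Values per library were not analysed here, so whether libraries of the groups overlap cannot be given, and the depth per library is unknown. Each standard error (SE) and 95% interval below was derived from the ratio and p the authors give, taking p as a normal test. The labels do not tie samples to litters or embryos, so p reflects the spread among the samples sequenced, which may be technical. A gene is called changed where the authors' adjusted p is under 0.05.

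Tgfbr1 itself had log2 ratios of mutant to control of 0.43, 0.03 and -0.11 in E11.5 PCs, E13.5 PCs and E13.5 ECs per the authors' deposited tables, with adjusted p of 0.399, 1.00 and 0.859. A value per gene does not show the floxed part, so it does not check the labels. Control cells held the markers of their label: 19 pericyte markers with values had a median at the 71.7th and 75.7th percentile of gene levels in E11.5 and E13.5 PCs, and 16 endothelial markers one at the 98.0th percentile in ECs. Fibroblast and meningeal markers were present in both pericyte sorts too, with medians at the 88.7th percentile at E11.5 and the 91.9th at E13.5. Cartilage and bone progenitor markers had medians at the 65.9th percentile at E11.5 and the 94.4th at E13.5. The latter was the highest control median of the marker lists in E13.5 PCs. These marker percentiles are not corrected for transcript length. Xist, the RNA of the inactive X chromosome, had means of 5.73 in E13.5 mutant PCs against 36145 in E13.5 control PCs per the authors' deposited table. Sex and genotype thus cannot be told apart in that comparison. Xist had no p in use here for E11.5 PCs or E13.5 ECs, so sex was not compared there.

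By the authors' test, Hic1 and Foxs1 were lower in mutant than in control pericytes at E11.5. When the test statistics were divided by 1.51 to rescale the spread, neither passed (adjusted p of 0.0569 for Hic1 and 0.929 for Foxs1). Hic1 fell 6.94-fold and Foxs1 1.95-fold per the authors' deposited table, and the other 8 genes did not pass the threshold. Of the 10 genes 2 were lower and 0 higher, beside 2.70% of 19301 genes lower and 0.642% higher, 3.35% in all. The log2 ratio was below 0 for 9 of the 10, against 50.4% of all genes tested, and its median was -0.78, against 0.00 over all genes. Ebf1 alone lay above 0. The 10 genes were listed with earlier results known, so these shares and medians are not an independent test against all genes. Below 0 at E11.5 also lay 18 of 21 other forkhead genes and 31 of 37 other mesenchymal factors. In sorted bulk cells, fewer cells of a type and less RNA per cell cannot be told apart.

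Hic1 lies on the minus strand of chromosome 11 (chr11:75164565-75169519, mm10), and its longest annotated transcript has 2 exons. Its group mean was 39.8 in E11.5 mutant PCs and 276 in E11.5 control PCs per the authors' deposited table. The log2 ratio was -2.79 (SE 0.44, 95% interval -3.65 to -1.93, adjusted p = 4.43e-07) per the authors' deposited table. It was the 17th lowest ratio among the 19301 genes tested. At the near end of its interval the fall of Hic1 was still 3.82-fold. RefSeq's GRCm38.p6 annotation gives Hic1 2 start sites, and the windows from 250 bases before to 50 after each are shown because Hic1 had the largest change of the 10 genes at E11.5. Capitals mark the match to the motifs searched.

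Hic1 upstream start, chr11:75170206-75170505, minus strand: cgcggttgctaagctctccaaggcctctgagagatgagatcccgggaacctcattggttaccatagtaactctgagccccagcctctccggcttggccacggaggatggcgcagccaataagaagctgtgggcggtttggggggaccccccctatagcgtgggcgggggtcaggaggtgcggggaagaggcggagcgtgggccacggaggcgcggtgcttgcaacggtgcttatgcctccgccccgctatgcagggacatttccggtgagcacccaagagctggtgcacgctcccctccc
Hic1 downstream start, chr11:75168103-75168402, minus strand: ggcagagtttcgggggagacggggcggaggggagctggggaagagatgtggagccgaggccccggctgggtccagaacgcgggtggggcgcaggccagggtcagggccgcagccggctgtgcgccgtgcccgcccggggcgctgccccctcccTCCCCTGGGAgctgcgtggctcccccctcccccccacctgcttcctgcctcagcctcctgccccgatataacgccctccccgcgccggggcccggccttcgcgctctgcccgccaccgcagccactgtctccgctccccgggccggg

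The motifs searched, on both strands, were the SMAD-type word CAGAC, which 49.6% of 32851 RefSeq promoter windows hold, the forkhead word GTAAACA (3.65% of windows), the E-box CATATG (3.91%) and the EBF palindrome (0.904%). Of the 10 genes 8 have such windows, and CAGAC occurred in those of Foxd1, Tbx18 and Twist1, while GTAAACA and CATATG were in none. The EBF palindrome occurred once, from base 154 of the downstream Hic1 window. These matches are letters only and say nothing about binding. The Hic1 windows were rich in G and C, at 64.7% for the upstream and 77.3% for the downstream one, against a median of 52.7% over all windows. This is not particular to Hic1: the windows of Foxf2, Foxc1, Twist1 and Zic1 held 71.3%, 67.3%, 66.0% and 65.3%. Those of Foxd1 and Tbx18 held 57.7% and 51.7%, and the Ebf1 windows 36.7% and 53.0%.

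Among the forkhead genes, Foxs1 (chr2:152931898-152933208, minus strand, mm10), a gene of 1 exon known from mural cells, had group means of 42.6 in E11.5 mutant PCs and 83.0 in E11.5 control PCs per the authors' deposited table. Its log2 ratio was -0.96 (SE 0.26, 95% interval -1.46 to -0.46, adjusted p = 0.0126) per the authors' deposited table. Per kilobase of transcript, the level of Foxs1 was the lowest of the 10 in E11.5 control PCs. Foxc2 came next by p, with group means of 849 in mutant PCs against 1459 in control PCs, a log2 ratio of -0.78 (SE 0.28) and an adjusted p of 0.0893 per the authors' deposited table. Foxc2 thus missed the threshold, and its interval of -1.32 to -0.24 before any adjustment lay below 0.

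Foxc1 had means of 675 in E11.5 mutant PCs and 1295 in E11.5 control PCs per the authors' deposited table, a log2 ratio of -0.94 with an SE of 0.59, wider than that of Foxs1 (adjusted p = 0.396). Foxd1 had means of 939 in mutant PCs against 1617 in control PCs, and a log2 ratio of -0.78 with SE 0.42 (adjusted p = 0.305), per the authors' deposited table. For both genes the interval reached past 0, from -2.10 to 0.22 for Foxc1 and from -1.60 to 0.03 for Foxd1. Foxf2, the forkhead gene tied most directly to brain pericytes, had means of 614 in mutant PCs against 776 in control PCs and the smallest difference of the 5, a log2 ratio of -0.34 (SE 0.34, adjusted p = 0.627), per the authors' deposited table.

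Of the other factors, Twist1 had means of 419 in E11.5 mutant PCs and 851 in E11.5 control PCs per the authors' deposited table, a log2 ratio of -1.02 with an SE of 0.59 (adjusted p = 0.355). Zic1 had means of 902 in mutant PCs against 1352 in control PCs, a log2 ratio of -0.58 (SE 0.24, adjusted p = 0.162) per the authors' deposited table. Like Foxc2, Zic1 had an unadjusted p under 0.05, as did 4 of the 10 genes and 17.7% of all genes tested. Tbx18 had means of 1130 in mutant PCs against 1452 in control PCs, and a log2 ratio of -0.36 with SE 0.38 (adjusted p = 0.642) per the authors' deposited table. Ebf1 had means of 2895 in mutant PCs against 2671 in control PCs and a log2 ratio of 0.12 (SE 0.19, adjusted p = 0.784) per the authors' deposited table. Its interval, -0.25 to 0.48, leaves room for a fall of at most 1.19-fold.

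**Figure D1:**
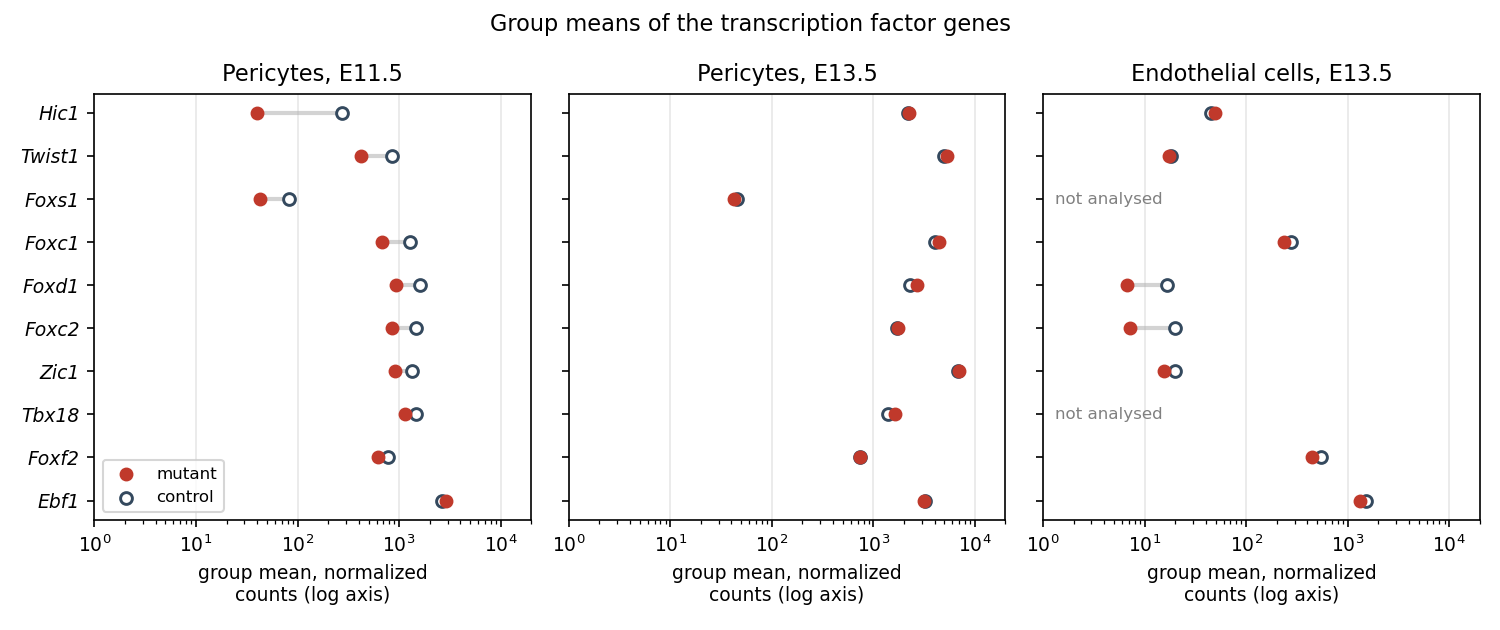
Group means of normalized counts (log axis) of each gene in mutant (red) and control (open) cells, 1 panel per deposited table, with no error shown. The gap between the groups is widest for Hic1 at E11.5 (39.8 in mutant PCs against 276 in control PCs), and in E13.5 pericytes every gene's log2 ratio is between -0.13 and 0.24.

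Some markers of pericytes and of other cells also fell in E11.5 mutants. Of 19 pericyte markers tested 5 fell and 1 rose, with a median log2 ratio of -0.33 and summed means of 18284 in mutant PCs against 22127 in control PCs. Of 19 fibroblast and meningeal markers 10 fell and 1 rose, with a median log2 ratio of -0.72 and summed means of 98442 in mutant PCs against 133716 in control PCs. All 14 myeloid markers had a log2 ratio below 0 and 4 fell, with sums of 1394 in mutant PCs against 2753 in control PCs. Of 12 endothelial markers 1 fell, Erg, and 11 lay below 0, with sums of 960.3 in mutant PCs against 1802 in control PCs; Pecam1 and Cldn5, which define endothelium, have no value in use here.

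Of 9 cartilage and bone progenitor markers 2 fell, Runx2 and Dlx5, with sums of 20619 in mutant PCs against 25651 in control PCs. Of 12 neural markers tested 1 fell, Emx2, and the 13 with values summed to 3703 in mutant PCs against 3982 in control PCs. Of 5 neural crest and Schwann markers tested 1 fell, Tfap2b. The 6 such markers with values summed to 618 in mutant PCs against 696 in control PCs. By the authors' DESeq2 test 0 of 4 erythroid markers passed, with sums of 52.3 in mutant PCs against 95.7 in control PCs. The part of these markers in the values of the 10 genes was not tested. Pdgfrb, whose regulatory sequence drives the Cre, had means of 4474 in mutant PCs against 4200 in control PCs (log2 ratio 0.09, SE 0.20) per the authors' deposited table.

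The calls at E11.5 depend on the spread. The division by 1.51 makes the median test statistic match that of a standard normal, and 0 of the 10 genes then passed. This setting takes most genes as unchanged, and 5 of 19301 genes passed under it, against 646. At an FDR under 0.1, 3 of the 10 passed, beside 5.90% of genes, and with a log2 ratio of at least 1 in size asked as well as an FDR under 0.05, 1 of the 10 did, beside 1.63%.

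At E13.5, no change of the 10 genes passed the threshold in pericytes. By the authors' DESeq2 test 0 of the 10 passed, beside 0.388% of 20084 genes (0.164% lower, 0.224% higher), and 1 of the 10 had an unadjusted p under 0.05, beside 4.06% of genes. The log2 ratios ran from -0.13 to 0.24, with a median of 0.04 against 0.00 over all genes, and 7 of the 10 lay above 0. The count was also 0 at an FDR under 0.1 (0.503% of genes) and with a log2 ratio of at least 1 in size asked as well (0.0846%).

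Hic1 had means of 2237 in E13.5 mutant PCs and 2212 in E13.5 control PCs per the authors' deposited table. Its log2 ratio was 0.02 (SE 0.11), and the interval of -0.20 to 0.23 leaves room for a fall of at most 1.15-fold. Among the forkhead genes, Foxc1 had 4436 in mutant PCs against 4076 in control PCs, Foxc2 1755 in mutant PCs against 1715 in control PCs, and Foxf2 737 in mutant PCs against 746 in control PCs per the authors' deposited table. Foxd1 had 2662 in mutant PCs against 2297 in control PCs, and Foxs1 42.0 in mutant PCs against 45.9 in control PCs per the authors' deposited table. The interval of Foxs1 was the widest, from -0.80 to 0.54.

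Tbx18 was the gene with an unadjusted p under 0.05. It had means of 1648 in E13.5 mutant PCs and 1395 in E13.5 control PCs and a log2 ratio of 0.24 (SE 0.09, adjusted p = 0.763) per the authors' deposited table. Zic1 had 7025 in mutant PCs against 6813 in control PCs, and Twist1 5270 in mutant PCs against 5015 in control PCs, per the authors' deposited table. Ebf1 had 3181 in mutant PCs against 3199 in control PCs per the authors' deposited table, and its SE of 0.09 was the smallest of the 10. Across the 10 genes the median SE was 0.14 at E13.5 and 0.36 at E11.5. The SE was smaller at E13.5 for 9 of the 10, and larger for Foxs1, at 0.34 against 0.26 at E11.5.

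**Figure D2:**
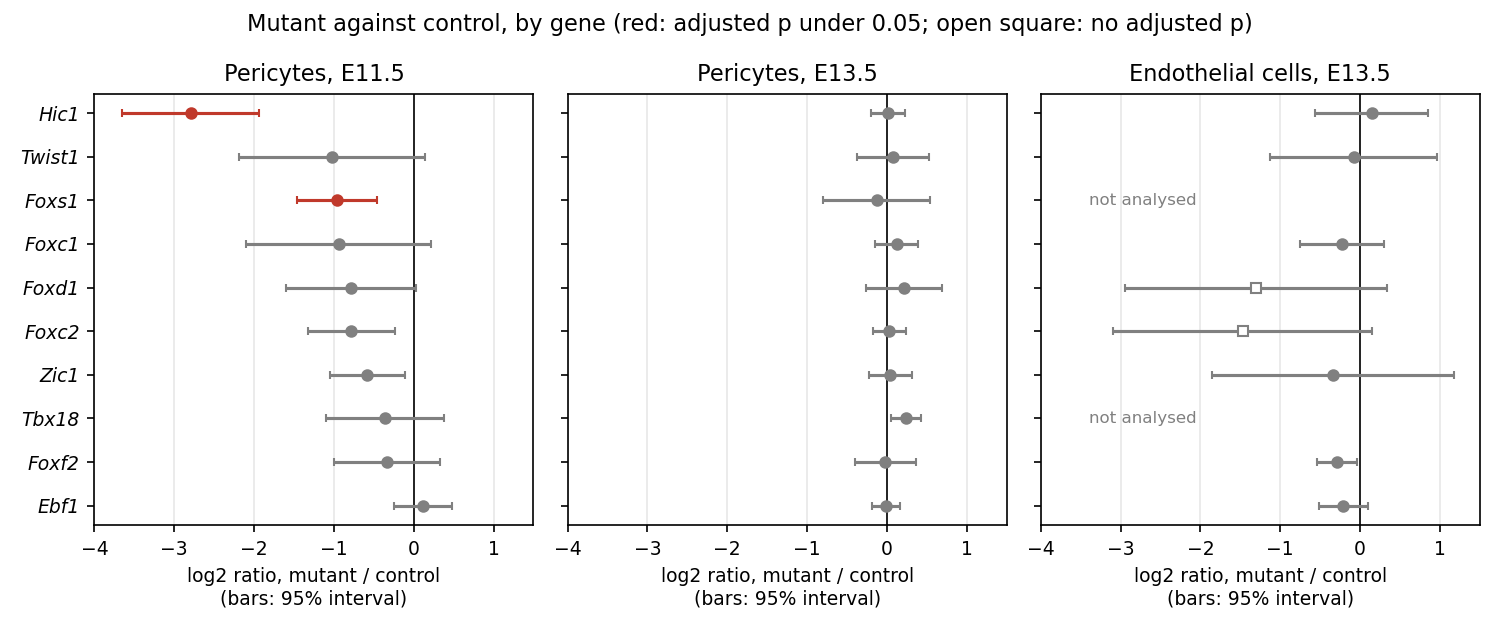
Log2 ratio of mutant to control (x axis) for each gene, with the 95% interval implied by the authors' ratio and p, 1 panel per deposited table. Hic1 (-2.79) and Foxs1 (-0.96) at E11.5 are the points past the threshold, and the intervals in pericytes at E13.5 include 0 for every gene but Tbx18, the widest being that of Foxs1 (-0.80 to 0.54).

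The mutant-to-control ratio of Hic1 differed between the stages. Its log2 ratio at E13.5 minus that at E11.5 was 2.81 (SE 0.45, 95% interval 1.92 to 3.70; normal test of the difference, Benjamini-Hochberg adjusted p = 4.61e-06 over 18267 genes). It ranked second of those genes by p, and 1.43% of them passed. The difference for Foxs1 was 0.83 (SE 0.43) with an adjusted p of 0.378, so its fall at E11.5 was not shown to be greater than its value at E13.5. For the other 8 genes the differences ran from -0.12 for Ebf1 to 1.09 for Twist1, with adjusted p between 0.157 and 0.836. The E13.5 part of each difference comes from groups in which Xist differs, so sex and genotype cannot be told apart in it.

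**Figure D3:**
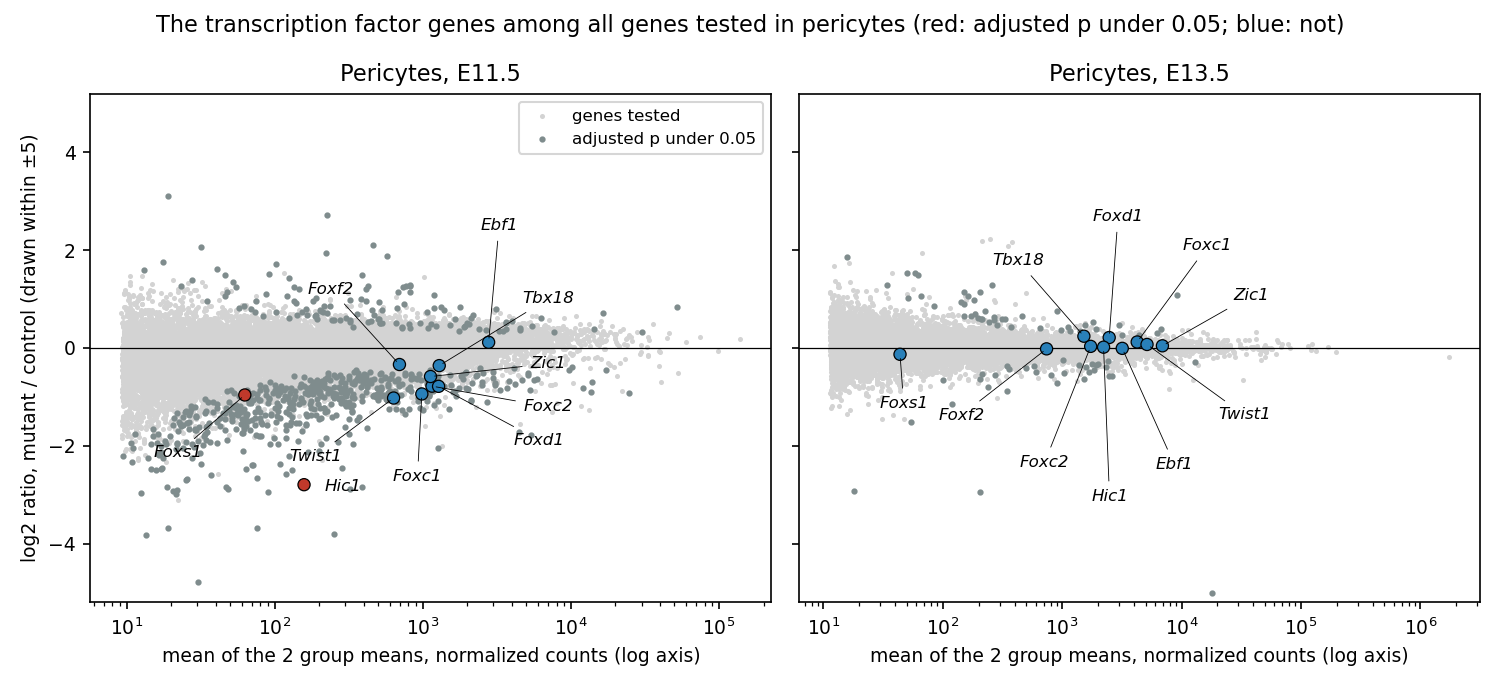
Log2 ratio of mutant to control (y axis, drawn within ±5) against the mean of both group means (x axis, log) for all genes tested in pericytes, with the 10 genes named. Hic1 lies at -2.79 at E11.5, below the other 9 genes, while all 10 genes lie within 0.24 of 0 at E13.5.

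Levels between genes were compared as percentiles of the mean per kilobase of the longest annotated transcript, within each table, since the tables were normalized separately. The genes can be ordered this way but not tested, since no spread per library was analysed here, and the tables hold different sets of genes. In E11.5 control PCs Foxc2, Twist1 and Ebf1 stood highest, at the 87.1st, 86.8th and 84.5th percentile per kilobase, and Hic1 and Foxs1 lowest, at the 50.05th and 46.2nd. In E13.5 control PCs Twist1 stood at the 97.9th percentile per kilobase and Zic1 at the 93.9th, and Foxs1 was again lowest, at the 35.4th. Hic1 ranked at the 23.5th percentile at E11.5 and the 87.5th at E13.5 in mutants, and at the 50.05th and 87.3rd in controls. Zic1, Twist1, Foxc1 and Foxd1 also ranked higher at E13.5 than at E11.5 in controls, whereas Foxc2 and Ebf1 moved by less than 1 percentile point. For Foxd1 the control percentiles were the 81.9th at E13.5 and the 79.0th at E11.5. Foxf2 and Tbx18 ranked lower at E13.5 in controls, at the 74.6th and 73.3rd percentile against the 79.6th and 78.5th at E11.5.

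In E13.5 endothelial cells, most of these genes were low, and by the authors' DESeq2 test none of those tested passed between mutant and control. Of the 8 genes analysed 6 had an adjusted p and 0 of them passed, beside 7.30% of 18132 genes (2.19% lower, 5.11% higher), and 1 had an unadjusted p under 0.05, beside 20.03% of genes. The count was also 0 at an FDR under 0.1 (10.8% of genes) and with a log2 ratio of at least 1 in size asked as well (1.36%). Ebf1 and Foxf2 stood well above the rest in control ECs, at the 68.4th and 66.4th percentile per kilobase, and Foxc1 at the 36.3rd was near Pdgfrb at the 32.9th. Hic1, Twist1, Foxc2, Zic1 and Foxd1 lay between the 17.4th and the 3.43rd percentile per kilobase.

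Foxf2 had means of 450.0 in mutant ECs and 549 in control ECs per the authors' deposited table, a log2 ratio of -0.29 (SE 0.13, adjusted p = 0.175). Scaling to the summed means shifts every log2 ratio in this table by 0.13. Foxf2 then passed, with a log2 ratio of -0.41 and an adjusted p of 0.0197. So did 2199 of 18132 genes, against 1323 without this scaling. The summed means include the haemoglobin genes: the 10 erythroid markers, of which 8 rose, summed to 1601160 in mutant ECs against 60019 in control ECs. Of 14 myeloid markers 3 rose in mutant ECs, and of 18 fibroblast and meningeal markers 2 fell and 1 rose. Of 17 pericyte markers 1 rose, Ifitm1, and 0 fell, while 12 lay below 0 and the median log2 ratio was -0.20. Ifitm1 had a mean of 3411 in control ECs, where Pdgfrb had 207. In E13.5 control PCs Ifitm1 had 185 and Pdgfrb 7160. Which cells the Ifitm1 RNA in ECs came from was not tested. Of 16 endothelial markers 1 fell, Kdr, and of 9 neural, 11 cartilage and bone and 6 crest and Schwann markers 0 passed. The 11 cartilage and bone markers, 7 of them below 0, summed to 3718 in mutant ECs against 12308 in control ECs. Their median log2 ratio was -0.92. The part of these markers in the values of the 10 genes was not tested. Ebf1 had means of 1313 in mutant ECs and 1518 in control ECs (log2 ratio -0.21, SE 0.16), and Foxc1 of 239 in mutant ECs and 279 in control ECs (log2 ratio -0.23, SE 0.27), per the authors' deposited table. Both intervals include 0, from -0.52 to 0.10 for Ebf1 and from -0.75 to 0.30 for Foxc1.

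Hic1 had means of 49.8 in mutant ECs and 45.1 in control ECs per the authors' deposited table. For Twist1 they were 17.4 in mutant ECs and 18.3 in control ECs, and for Zic1 15.7 in mutant ECs and 19.8 in control ECs, per the authors' deposited table. Foxc2 and Foxd1, with means of 7.22 and 6.79 in mutant ECs against 19.99 and 16.8 in control ECs, have no adjusted p per the authors' deposited table. The difference between cell types, endothelial minus pericyte log2 ratio at E13.5, passed for 0 of the 6 genes tested (normal test, adjusted p from 0.651 to 0.941), beside 3.94% of 16920 genes. At an unadjusted p under 0.05 it also passed for 0, the smallest p being 0.247. Sex and genotype cannot be told apart in the pericyte part of this difference.

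**Figure D4:**
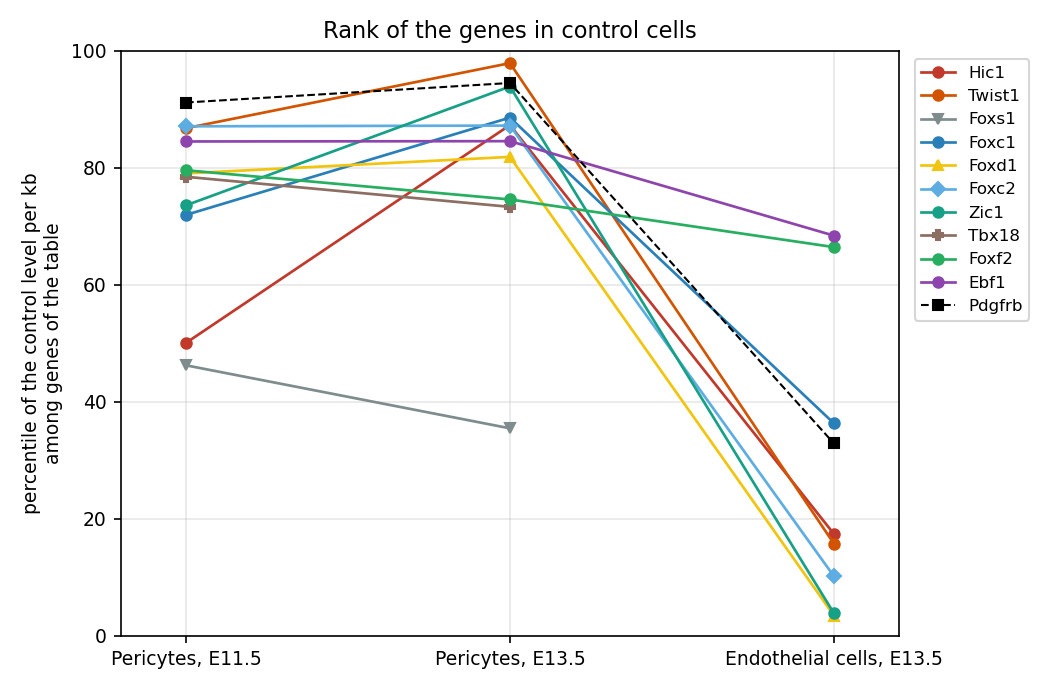
Percentile of the control group mean per kilobase among the genes of each table (y axis), with a line per gene and Pdgfrb dashed. Hic1 is at the 50.05th percentile in pericytes at E11.5 and at the 87.3rd at E13.5, and Ebf1 and Foxf2 stand apart from the others in endothelial cells.

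Foxf2 (chr13:31625816-31631403, plus strand, mm10) and Foxc1 (chr13:31806633-31812476, plus strand, mm10) lie 175 kb apart, with another forkhead gene, Foxq1, 64.8 kb before Foxf2 (chr13:31556134-31560976, plus strand, mm10). Foxq1 was the 1 of 21 other forkhead genes that fell in E11.5 PCs, with means of 37.1 in mutant PCs against 103 in control PCs, a log2 ratio of -1.47 (SE 0.39) and an adjusted p of 0.0129 per the authors' deposited table. At E13.5 Foxq1 had means of 107 in mutant PCs and 149 in control PCs (log2 ratio -0.48, adjusted p = 1.00) per the authors' deposited table. On chromosome 8, Foxf1 and Foxl1 flank Foxc2 within 28.0 and 9.04 kb, and their log2 ratios at E11.5 were -0.77 (adjusted p = 0.462) and 0.02 (adjusted p = 0.975) per the authors' deposited table. Zic1 overlaps Zic4 on the opposite strand of chromosome 9, and the sources used here do not say whether counting used strand, so reads from the shared stretch cannot be told apart. Zic4 had a log2 ratio of -0.19 (SE 0.14, adjusted p = 0.462) at E11.5 per the authors' deposited table.

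Other transcription factor genes of mesenchyme also fell at E11.5, where 2.70% of all genes did. These lists were chosen with earlier results of these data known. Their counts, here and at E13.5, are thus not an independent test against the share of all genes. Of 15 other T-box, ZIC, TWIST, HIC and EBF genes 2 fell at E11.5, Tbx2 and Twist2, the closest relative of Twist1, with log2 ratios of -1.80 and -0.59 per the authors' deposited table. Of 37 other mesenchymal factors 8 fell and 0 rose, with a median log2 ratio of -0.34. Runx2 and Dlx5 among them are also the 2 cartilage and bone markers that fell. The skeletal factor genes Runx2, Dlx6 and Dlx5 had log2 ratios of -3.79, -3.68 and -2.65, and Osr2, a factor of palate and limb mesenchyme, one of -1.92 per the authors' deposited table. Of 20 mural factors and coactivators 4 fell and 0 rose, with a median of -0.38. Klf4 and Epas1, which encode a factor of smooth muscle state and the hypoxia factor HIF-2 alpha, had log2 ratios of -1.75 and -0.98, and Hey2 and Mef2c of -0.55 and -0.88 per the authors' deposited table. The 21 other forkhead genes had a median of -0.37.

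At E13.5 in pericytes 0 of 25 other forkhead genes, 0 of 16 relatives of the other members and 0 of 20 mural factors passed, and 2 of 38 mesenchymal factors fell, where 0.164% of all genes did; the difference in these counts between the stages was not tested. Those were Scx, a factor of tendon progenitors, and Runx1, with log2 ratios of -0.89 and -0.48 per the authors' deposited table. Runx1 was lower at both stages, with -1.84 at E11.5 per the authors' deposited table. In endothelial cells the count was 0 of 18 forkhead genes, 0 of 11 relatives and 0 of 31 mesenchymal factors, and of 17 mural factors Heyl, a Notch target of mural cells, fell with a log2 ratio of -1.85 per the authors' deposited table. Of the markers tested at E13.5, 0 of 20 for fibroblasts and meninges passed in pericytes, with summed means of 512763 in mutant PCs against 494041 in control PCs. Of 19 pericyte markers 1 fell, Rgs5, and 3 rose, among them Des. Of 13 endothelial markers 1 fell, Erg, but only 2 lay below 0, and their median log2 ratio was 0.23. In E13.5 control PCs the mean of Erg was 1868, above Cdh5 at 876 and Kdr at 243. In control ECs Erg had 741, below Cdh5 at 19917 and Kdr at 27972. Erg in PCs thus need not stand for endothelial cells, and its source was not tested at either stage. Of the 14 myeloid, 16 neural, 10 cartilage and bone, 8 crest and Schwann and 6 erythroid markers tested 0 passed. The 7 erythroid markers with values summed to 1986 in mutant PCs against 461 in control PCs.

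**Figure D5:**
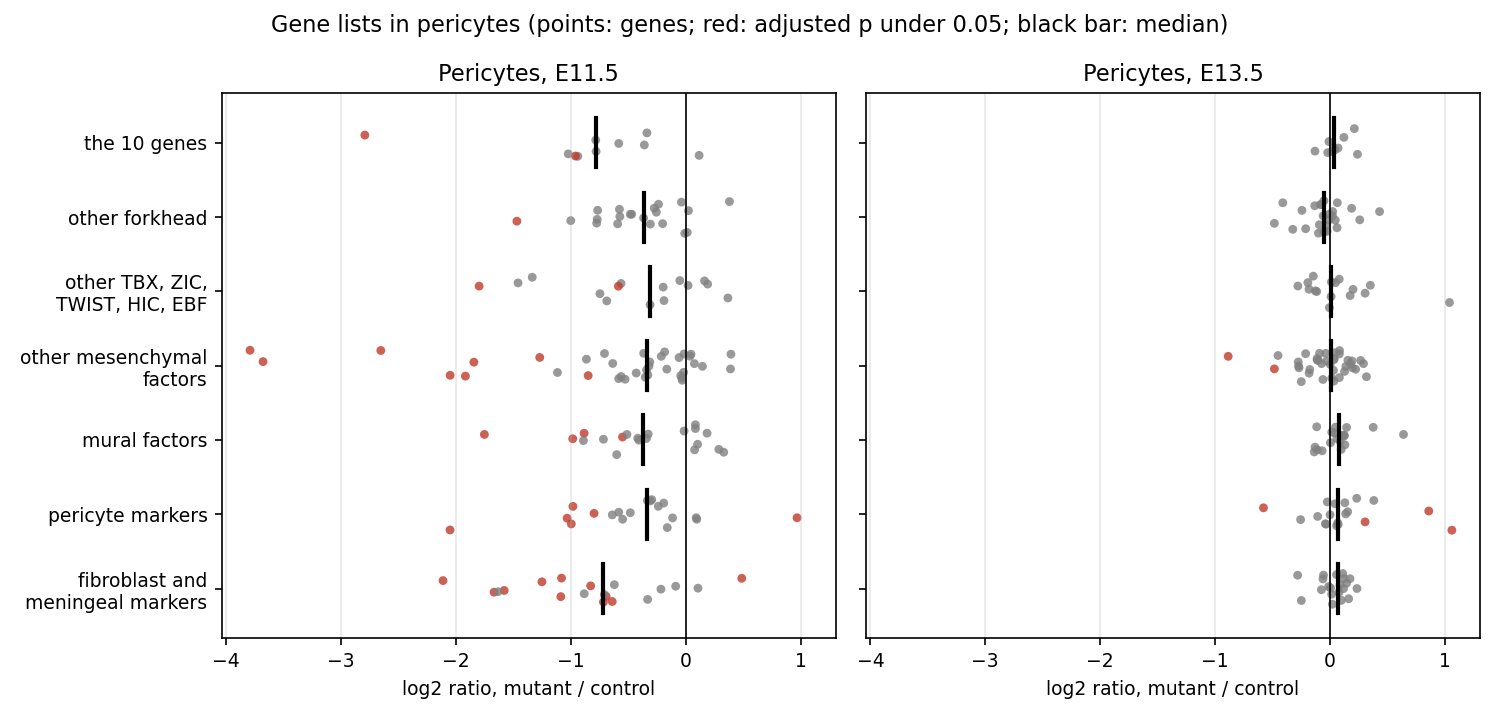
Log2 ratios of mutant to control (x axis) in pericytes at E11.5 and E13.5, by gene list. Each point is a gene, and the 10 genes, with a median of -0.78 at E11.5 and 0.04 at E13.5, form the top row.

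Hic1 had the 3 log2 ratios -2.79, 0.02 and 0.14 in E11.5 PCs, E13.5 PCs and E13.5 ECs. The distance between those 3 values was taken to 8725 genes with a p and a level above the median in every table. Among these, Aqp1 and Penk were nearest, at 0.89 and 1.06. Hic1 itself lay below the median level in ECs, at the 25.9th percentile in mutants and the 24.8th in controls. Genes at its own level were thus not searched. Among those left out, Dlx5 had log2 ratios of -2.65, 0.02 and 0.07, nearer to Hic1 than Aqp1 in pericytes at both stages. Aqp1, which encodes a water channel, had log2 ratios of -1.90, -0.04 and 0.10, with an adjusted p of 0.155 at E11.5 per the authors' deposited table. Penk, which encodes the opioid precursor proenkephalin, had -1.78, -0.18 and -0.11, with means at E11.5 of 2411 in mutant PCs against 8288 in control PCs per the authors' deposited table. For Foxs1 the distance could not be given, since it was not analysed in endothelial cells.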

How the data were processed

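Per the labels' protocols, sorted cells gave RNA for KAPA mRNA libraries, which a NovaSeq instrument read. Per the submitters' processing notes, Bowtie2, DESeq2 and Partek were used with mm10. Versions, annotation, counting, filters and model formula are not given in the sources used here. What the deposited tables hold is, per the file headers, a p-value, a step-up FDR, the mutant-to-control ratio, the same as a signed fold score, and for each group a least-squares mean, a signal taken here as the mean normalized count. Depth per library is unknown.

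The authors' FDR is printed as the adjusted p from DESeq2; it equals the Benjamini-Hochberg value over genes that have one. SE is the size of the log2 ratio divided by the normal deviate for the two-sided p given, and intervals are 1.96 SE each way. Differences between tables used summed squared SE and a normal test, adjusted over all shared genes. These steps were also run on simulated data drawn from the same normal model. That run cannot check whether the model holds for the authors' values. Percentiles use GENCODE M21 transcript lengths (97.3% to 97.4% of genes). Calculations ran in Python 3.11.15 with scipy 1.17.1, pandas 2.3.3 and numpy 2.4.6, and plots in matplotlib 3.10.9.

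The members and the 12 gene lists were chosen with earlier results of these data known. The genes named are the members, Tgfbr1 and up to 4 called genes with the smallest p per list (2 for markers). Also named are the 2 nearest to each called member among genes above the median level in every table. Pdgfrb, Xist, Pecam1, Cldn5, neighbouring genes and the comparison of Dlx5 with Hic1 were added after values were seen. Alternatives were no filter on low genes, an FDR of 0.1, a log2 ratio of at least 1, 2 scalings and a rescaled spread.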

Additional observations from a re-analysis of the deposited data

Results flagged for a closer look

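The log2 ratio of Hic1 differed between the pericyte stages, by 2.81 at E13.5 against E11.5 (SE 0.45, normal test with Benjamini-Hochberg adjusted p = 4.61e-06). It was -2.79 at E11.5 and 0.02 at E13.5. Of the 16 differences tested over the 10 genes, 10 between stages and 6 between cell types, this one passed the threshold. All 16 draw on the E13.5 pericyte comparison, in which sex and genotype cannot be told apart.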

How the results depend on the processing

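Hic1 and Foxs1 kept their calls at E11.5 with no filter on low genes, under both scalings and at an FDR of 0.1, which added Foxc2 (3 of the 10) and called 1139 of all genes. With a log2 ratio of at least 1 asked as well, 1 of the 10 passed at E11.5, Hic1, and the counts over all genes were 315 in E11.5 PCs, 17 in E13.5 PCs and 247 in E13.5 ECs. With the spread rescaled, 0 of the 10 passed at E11.5, and the counts over all genes were 5, 142 and 49; for the differences they were 5 between stages and 59 between cell types. Hic1's difference between stages passed under the 3 settings run for it (no filter on low genes, centring on the median gene, rescaled spread). Scaled to the summed means, 1 of the 6 genes tested in ECs, Foxf2, passed, as did 2199 of 18132 genes in all. All other counts over the 10 genes stayed as they were. The cause was not tested. No paired analysis was possible because values per library were not analysed here, and leaving out each replicate was not run for the same reason. Means under about 20, as for Zic1, Twist1, Foxc2 and Foxd1 in ECs, allow only wide intervals.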
